A study of Solanum lycopersicum with 4 samples.

Results

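The genes described here are 10 transcription factors known as regulators of tomato fruit ripening, out of 34675 genes in the deposited table. They were chosen by gene ID, from a fixed list of RIN, NOR, CNR, TAGL1, TAG1, FUL1, FUL2, AP2a, NOR-like1 and HB1, and not by their measured values. Earlier results of these data were known when the list was chosen. Each ID matched 1 row. RNA sequencing had been done on fruit of the tomato (Solanum lycopersicum) variety Ailsa Craig in 4 libraries. The transgenic group held 2 libraries from plants carrying CsMYBF1, a MYB transcription factor gene of citrus, 1 from line D7 (replicate 1) and 1 from line C2 (replicate 2). The wild-type group held 2 libraries. All samples were untreated, and each transgenic line was thus sampled once. The labels give neither the promoter of the transgene nor the age or ripening stage of the fruit, and do not state if separate plants were sampled for wild type. The p-values therefore measure the spread between these samples, which may be technical in wild type.

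Values are RPKM as the authors deposited them, that is, read numbers scaled both to the length of the gene and to the size of the library. Depth, recovered from the steps in the RPKM values, ranged from 12916160 to 21403774 reads. Fold changes below are on the log2(RPKM + 1) scale, transgenic over wild type, and a gene is called where the limma p-value, Benjamini-Hochberg adjusted over all 16876 genes tested, is below 0.05. All 10 regulators passed the filter of a mean of at least 1 RPKM. The log2 fold change of all genes tested had a median of 0.49, and median-of-ratios scaling, which sets the typical gene equal between libraries, moved it to -0.05.

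Ripening of tomato fruit follows a transcriptional programme that turns on ethylene synthesis, pigment formation and softening. RIN is a MADS-box factor of the SEPALLATA class, which binds DNA in complexes with FUL1 and FUL2, MADS-box factors of the FRUITFULL clade. NOR and NOR-like1 are NAC factors, and CNR is an SBP-box factor known from a non-ripening epimutant with a colourless pericarp. TAGL1 and TAG1 are MADS-box factors of the AGAMOUS clade, AP2a is an APETALA2 factor that restrains ripening, and HB1 is a homeodomain-zipper factor that binds the promoter of an ethylene synthesis gene. Of the 10 names, 9 were found by symbol or synonym in RefSeq's annotation of assembly SLM_r2.1, and all 9 lie on the chromosome that their Solyc ID gives.

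RIN fell in transgenic fruit and was the only regulator called. RIN (Solyc05g012020.2, chromosome 5) measured 215 RPKM in line D7, 276 RPKM in line C2, 647 RPKM in wild-type replicate 1 and 574 RPKM in wild-type replicate 2. Both lines were low and both wild-type libraries high, with no overlap, which was so for 17.4% of all genes tested. The mean was 245 ± 42.8 RPKM in transgenic and 611 ± 51.7 RPKM in wild-type fruit (SD, n = 2 each), which makes the transgenic mean 2.49-fold lower. The log2 fold change was -1.32 (standard error 0.29, 95% interval -2.02 to -0.62, limma adjusted p = 0.034). Line D7 held 35.2% and line C2 45.2% of the wild-type mean. Any pair of a transgenic and a wild-type library differed by 2.08-fold to 3.01-fold, whereas the lines differed by 1.28-fold and the wild-type libraries by 1.13-fold. Behind the values stood 3942 to 16664 recovered reads per library, so counting error was small beside the spread between libraries. By level, RIN ranked 203rd and 290th of all genes in wild type and 657th and 412th in lines D7 and C2.

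**Figure D1:**
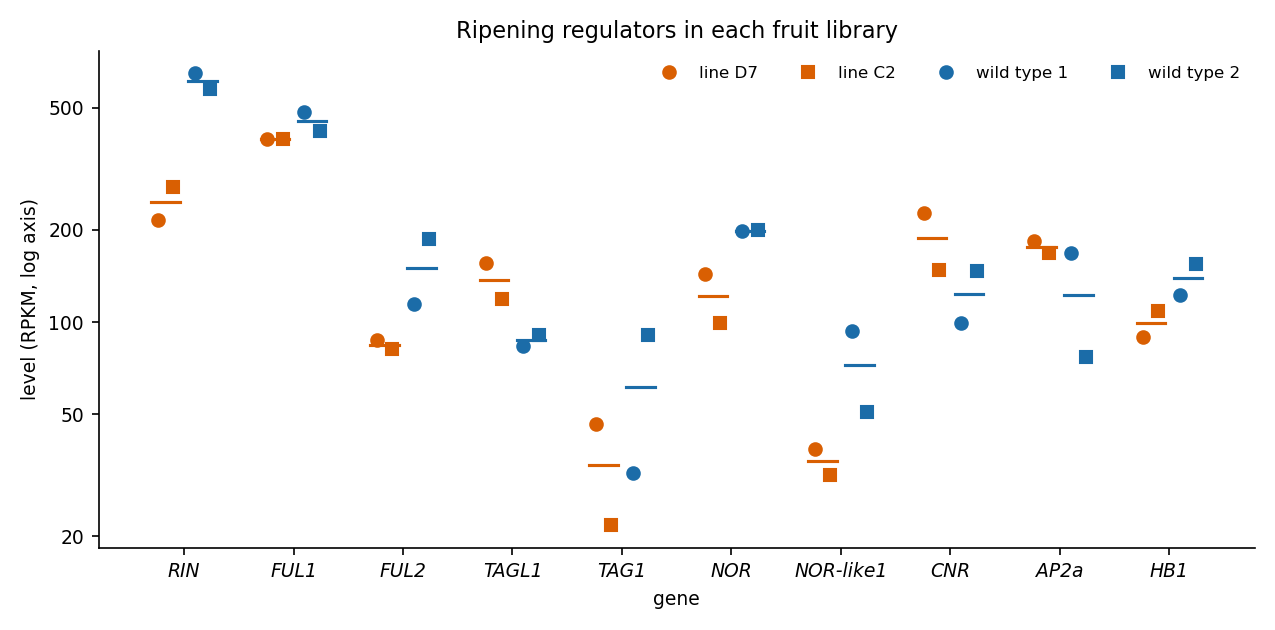
Level of each of the 10 regulators in RPKM (log axis) in the 4 libraries, orange for transgenic and blue for wild type, with a bar at each group's mean. RIN sits at 215 and 276 RPKM in the transgenic lines and at 647 and 574 RPKM in wild type, and the groups overlap for TAG1 and AP2a.

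RIN was not called once any single library was left out, but this cannot decide how far its call rests on 1 library. In such a fit 1 group has no spread of its own. Almost no gene at all was called lower when line D7, line C2 or wild-type replicate 2 was dropped. That was not so for wild-type replicate 1. The log2 fold change of RIN was -1.14 without line D7 and -1.5 without line C2. Dropping wild-type replicate 1 gave -1.23, and dropping replicate 2 of wild type gave -1.41. The log2 fold change stayed between -1.5 and -1.14 in these fits, in which a group of 1 library is assumed to vary like the other group. Abundant genes in general were lower in the transgenic libraries: 371 genes with a mean within 1.5-fold of that of RIN showed a median of -0.64 on the log2 scale, and 10.2% of them were called lower. The part of this trend in the lower RIN value was not tested. In bulk RNA, fewer cells with a transcript and less of it per cell cannot be told apart, here and for every gene below. RefSeq also lists a fused locus, MADS-RIN-MADS-MC, that overlaps RIN, and LOC109120527 overlaps FUL1. The reads of either pair cannot be told apart here, and strand use in counting is not stated.

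The FRUITFULL-clade partners of RIN were not called. FUL1 (Solyc06g069430.2, chromosome 6) measured 397 RPKM in line D7 and 396 in line C2, and 482 and 419 RPKM in wild type. The lines were nearly equal and just below both wild-type libraries. Its log2 fold change was -0.18 (95% interval -0.84 to 0.48, limma adjusted p = 0.64). It turned to 0.37 with quantile normalization and was -0.82 with median-of-ratios scaling (limma adjusted p = 0.082). Leaving out wild-type replicate 1 gave -0.08, and leaving out wild-type replicate 2 gave -0.28. FUL2 (Solyc03g114830.2, chromosome 3) stood at 87.1 and 81.8 RPKM in lines D7 and C2, against 115 and 186 RPKM in wild type. Here too both lines lay below wild type, and the wild-type libraries were themselves 1.62-fold apart. FUL2 had a log2 fold change of -0.78 (95% interval -1.59 to 0.02, limma adjusted p = 0.13), which became -1.13 when wild-type replicate 1 was left out and -0.44 for wild-type replicate 2. With median-of-ratios scaling the value for FUL2 was -1.42 (limma adjusted p = 0.065).

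FUL1 was the most abundant of the 10 regulators in transgenic fruit, and RIN in wild-type fruit. In wild type RIN was followed by FUL1 and NOR, and these 3 were each separate from the next in both libraries. From FUL2, HB1, CNR and AP2a down to TAGL1, NOR-like1 and TAG1, neighbours in the wild-type order overlapped in their ranges. In transgenic fruit FUL1 was separate from RIN, whereas RIN, CNR and AP2a followed each other with overlapping ranges. TAGL1, NOR and HB1 formed a second overlapping run, FUL2 stood alone, and NOR-like1 and TAG1 overlapped at the bottom.

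Of the AGAMOUS-clade genes, TAGL1 stood higher in both lines and TAG1 varied within both groups. TAGL1 (Solyc07g055920.2, chromosome 7), which promotes the expansion and ripening of the fleshy fruit wall, measured 155 RPKM in line D7 and 119 in line C2. Its wild-type values were 83.7 and 90.9 RPKM, below both lines. The log2 fold change of 0.63 (95% interval -0.06 to 1.33) missed the threshold (limma adjusted p = 0.15) and exceeded the median of all genes by 0.14. The 1135 genes within 1.5-fold of its mean level had a median of -0.23. With median-of-ratios scaling the log2 fold change of TAGL1 was -0.00098. TAG1 (Solyc02g071730.2, chromosome 2), the tomato counterpart of the floral organ identity gene AGAMOUS, stood at 46.6 and 21.8 RPKM in lines D7 and C2 and at 32.1 and 90.9 RPKM in wild type. The groups overlapped, with a 2.14-fold difference between the lines and a 2.83-fold difference between the wild-type libraries. The log2 fold change of TAG1 was -0.74 (95% interval -2.2 to 0.71, limma adjusted p = 0.38), and leaving out a library in turn moved it from -1.48 to -0.01.

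Both NAC genes were lower in the 2 lines than in either wild-type library, and neither was called. NOR (Solyc10g006880.2, chromosome 10), whose mutant gives non-ripening fruit, measured 144 RPKM in line D7 and 99.1 in line C2. In wild type it stood at 198 and 199 RPKM, the closest pair of wild-type values among the 10 genes. Its log2 fold change was -0.73 (95% interval -1.47 to 0.01, limma adjusted p = 0.12), and -0.46 without line C2. NOR-like1 (Solyc07g063420.2, chromosome 7), a related activator of ripening, stood at 38.7 and 31.7 RPKM in lines D7 and C2, against 93.8 and 51 RPKM in wild type. The lower wild-type value was thus nearer to the lines than to the other wild-type library. NOR-like1 had a log2 fold change of -0.96 (95% interval -1.88 to -0.05, unadjusted p = 0.042, adjusted p = 0.11 with limma). Without wild-type replicate 1 it was -0.53, and without wild-type replicate 2 it was -1.4. With median-of-ratios scaling both NAC genes fell just below the threshold, NOR at -1.37 (limma adjusted p = 0.0496) and NOR-like1 at -1.59 (limma adjusted p = 0.0495). Under that scaling 5.49% of all genes tested were called lower.

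CNR and AP2a had positive fold changes and HB1 a negative one, and none of these 3 was called. CNR (Solyc02g077920.2, chromosome 2) measured 227 RPKM in line D7 and 148 in line C2, and 99.6 and 147 RPKM in wild type. Line C2 lay only just above wild-type replicate 2, so that the groups barely separate. Its log2 fold change was 0.6 (95% interval -0.27 to 1.46, limma adjusted p = 0.25). It was 0.29 without line D7 and 0.32 with wild-type replicate 1 left out, and 0.9 and 0.88 without the other library of each group. AP2a (Solyc03g044300.2, chromosome 3) stood at 183 and 168 RPKM in lines D7 and C2, against 168 and 77 RPKM in wild type. Its log2 fold change was 0.62 (95% interval -0.4 to 1.64, limma adjusted p = 0.3). Only wild-type replicate 2 was low, and without it the value was 0.06. Without wild-type replicate 1 it was 1.18 (limma adjusted p = 0.051). HB1 (Solyc02g086930.2, chromosome 2) stood at 89.4 and 109 RPKM in lines D7 and C2, below 123 and 155 RPKM in wild type, with a log2 fold change of -0.48 (95% interval -1.19 to 0.22, limma adjusted p = 0.25) and -0.32 without wild-type replicate 2. With median-of-ratios scaling the log2 fold change of CNR was -0.04, that of AP2a -0.02 and that of HB1 -1.12.

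**Figure D2:**
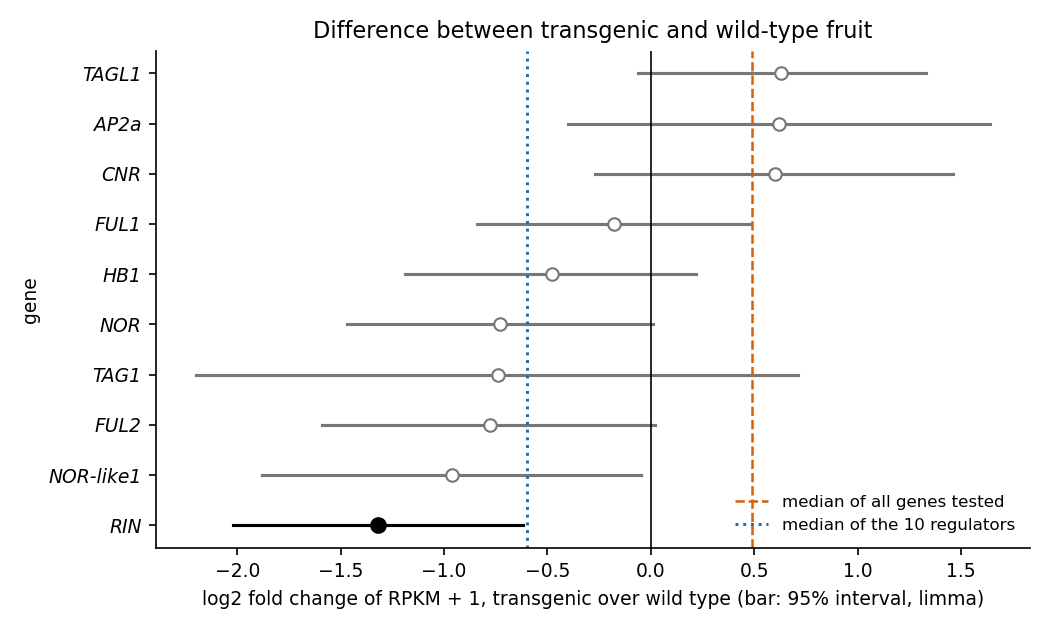
Log2 fold change of RPKM + 1 (transgenic over wild type) of each regulator with its 95% interval from limma; filled for the gene called, open for the others. The dashed line marks the median of all genes tested, 0.49, and the dotted line the median of the 10 regulators, -0.6; the interval of RIN, -2.02 to -0.62, lies below 0.

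As a set, the regulators lay on the lower side of the distribution of all genes, a comparison not matched for level. Genes within 1.5-fold of a regulator's mean level had medians from -0.64 (around RIN and FUL1) to 0.25 (around TAG1). The median of all genes was 0.49. The part of this trend in the shares below was not tested. Of the 10 regulators 1 was called lower, where 2.09% of all genes tested were, and 0 were called higher, where 18.8% of all genes were (limma). At an unadjusted p below 0.05 the regulators numbered 2 lower (RIN and NOR-like1) and 0 higher, against 7.35% and 34.1% of all genes. Limma voom on the recovered reads also called 1 lower and 0 higher, where it called 332 lower and 3529 higher among all 16876 genes tested. A negative log2 fold change was found for 7 of the 10, against 33.4% of all genes, and the median over the 10 was -0.6. In 6 regulators (RIN, NOR, FUL1, FUL2, NOR-like1 and HB1) both lines lay below both wild-type libraries, which was so for 17.4% of all genes. The opposite held for CNR and TAGL1, and for 50.7% of all genes.

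These shares depend on the scaling. The shares after scaling are not matched for level either. With median-of-ratios scaling, under which 2.95% of all genes were called higher and 5.49% lower, 3 regulators were called lower (RIN, NOR and NOR-like1) and 0 higher. These 3 lay just below the threshold, with limma adjusted p of 0.0494 for RIN, 0.0496 for NOR and 0.0495 for NOR-like1. All 10 then had a negative log2 fold change, against 51.7% of all genes, with a median of -1.24. Non-overlapping lower values were then found for 7 regulators, with TAG1 added to the 6 above, against 34.8% of all genes. Non-overlapping higher values were found for 0 regulators, against 33.4% of all genes. The median over the 10 was below 0 in every setting tried, from -1.24 with that scaling to -0.3 without wild-type replicate 2.

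**Figure D3:**
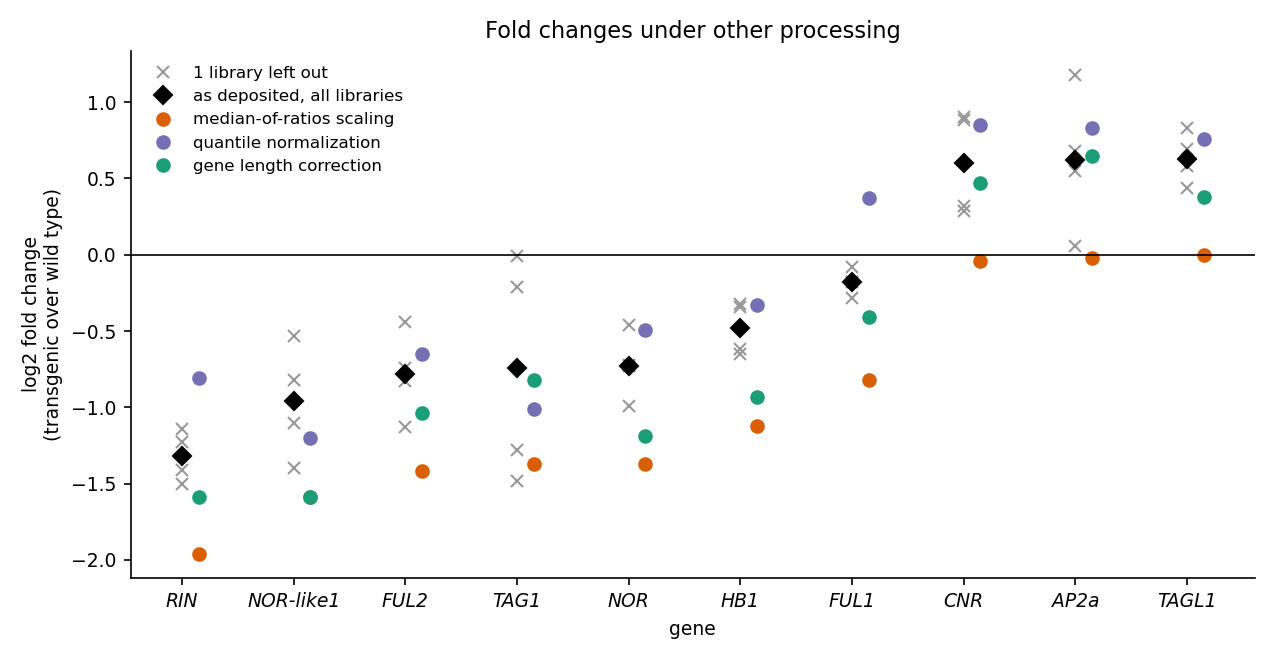
Log2 fold change (transgenic over wild type) of each regulator as deposited (black), with 1 library left out (grey crosses) and under median-of-ratios scaling, quantile normalization and the gene length correction. RIN stays between -1.96 and -0.81, CNR, AP2a and TAGL1 reach about 0 with median-of-ratios scaling, and FUL1 reaches 0.37 with quantile normalization.

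Level and length both went with the fold change across all genes, and the regulators are well-expressed genes of 825 to 1588 bases by recovered length. Genes within 1.5-fold of a regulator's mean level had median log2 fold changes from -0.64 (around RIN and FUL1) to 0.25 (around TAG1). RIN, NOR, FUL2, TAG1, NOR-like1 and HB1 lay below the median for their level. FUL1, CNR, TAGL1 and AP2a lay above it. Genes within 1.5-fold of a regulator's length had medians from -0.04 (around AP2a) to 0.66 (around NOR-like1). Recovered lengths are lower limits, and the shortest, 825 bases for AP2a, may be a divisor of its true length. With each library's length trend removed, the log2 fold change of RIN was -1.59 (limma adjusted p = 0.11). No regulator was called in that fit, and of all 16876 genes tested 18 were called higher and 0 lower.

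**Figure D4:**
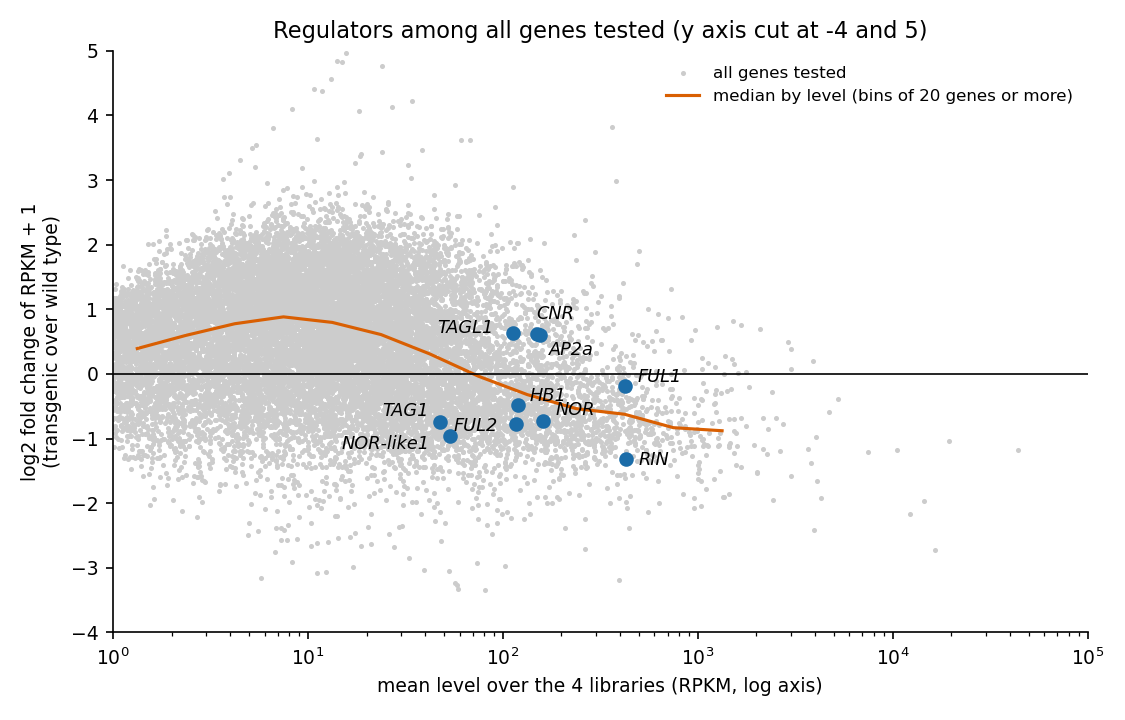
Log2 fold change of RPKM + 1 (transgenic over wild type) against mean RPKM (log axis) for all genes tested (grey), with the median by level (orange) and the 10 regulators (blue). Above about 10 RPKM the median falls as the level rises; RIN at -1.32 lies below it, and CNR, TAGL1 and AP2a, at 0.6 to 0.63, lie above it.

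Ratios between regulators within a library are not changed by a single scaling factor per library, such as median-of-ratios scaling gives; quantile normalization and the length correction can change them. RPKM is per length, so such a ratio also compares levels of different genes. The RIN to FUL1 ratio was 0.543 in line D7 and 0.696 in line C2, against 1.34 and 1.37 in wild type. FUL1 thus exceeded its partner RIN in both lines, and RIN exceeded FUL1 in both wild-type libraries. The mean ratio was 0.619 ± 0.108 in transgenic and 1.36 ± 0.0196 in wild-type fruit (SD, n = 2 each). An exact permutation test of 2 libraries against 2 cannot go below a two-sided p of 0.333, so no p is given for ratios.

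RIN was also lower relative to the ripening repressor AP2a and to CNR. The RIN to AP2a ratio was 1.17 and 1.64 in lines D7 and C2, against 3.85 and 7.46 in wild type. For RIN to CNR it was 0.948 and 1.86, against 6.5 and 3.9. Both separate the groups, and the wild-type mean was 4.01-fold the transgenic mean for AP2a and 3.71-fold for CNR. RIN to NOR was 1.5 in line D7 and 2.78 in line C2, against 3.27 and 2.88 in wild type, so that line C2 lay next to the wild-type range. The RIN ratios to FUL1, AP2a, CNR and NOR were chosen with earlier results of these data known, and all 4 were lower in both lines. The ratios to the 5 other regulators were added after the data were seen. With them, 6 of 9 RIN ratios were lower in both lines, and those to TAG1, FUL2 and NOR-like1 overlapped. The ratio of RIN to another gene was lower in both lines for 82.4% of all genes tested, so a lower RIN ratio was not particular to these partners.

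Among pairs of related genes, FUL1 to FUL2 was 4.55 and 4.84 in lines D7 and C2, against 4.21 and 2.25 in wild type, with wild-type replicate 1 close to the lines. TAGL1 to TAG1 was 3.33 and 5.47 in the lines and 2.61 and 1 in wild type, which separates the groups although each group is itself spread. NOR to NOR-like1 overlapped, at 3.72 and 3.13 in the lines and 2.11 and 3.91 in wild type.

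**Figure D5:**
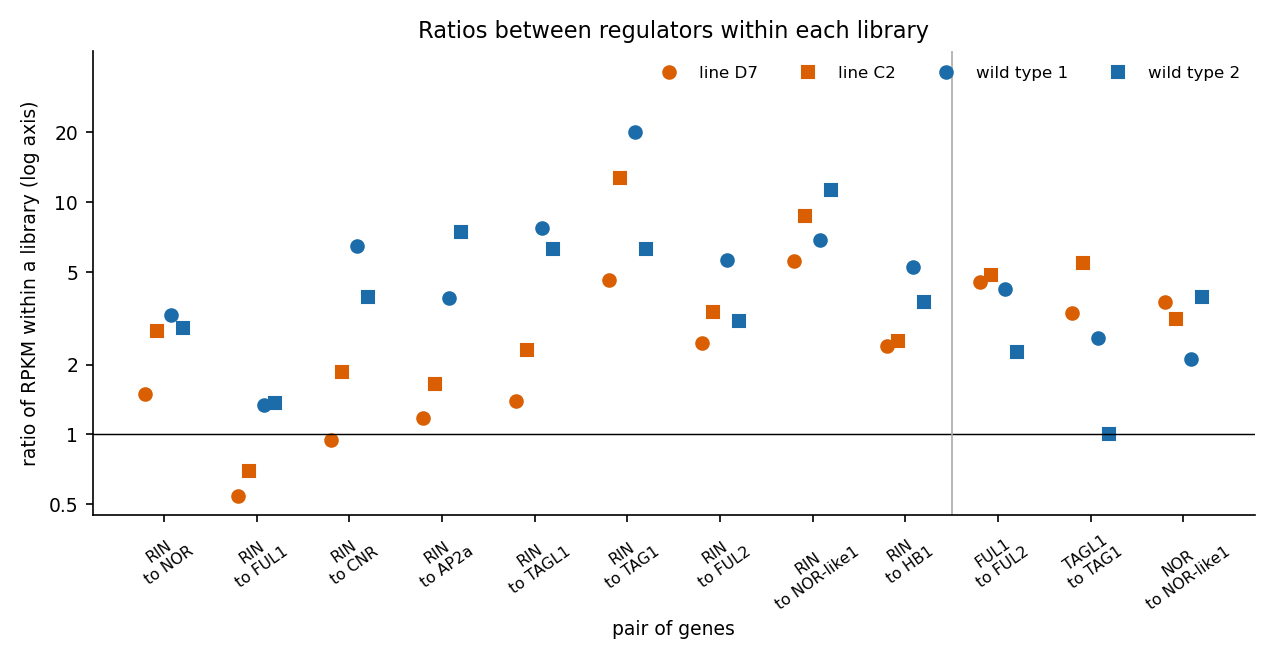
Ratio of RPKM between pairs of regulators within each library (log axis), orange for transgenic and blue for wild type; RIN ratios stand left of the grey line and related pairs right of it. RIN to FUL1 lies below 1 in both lines and above 1 in both wild-type libraries, and 6 of the 9 RIN ratios are lower in both lines, against 82.4% of RIN ratios to all genes tested.

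The genes whose profile over the 4 libraries was closest to that of RIN, by Euclidean distance of centred log2(RPKM + 1), were Solyc06g075830.1 (chromosome 6, distance 0.071) and Solyc02g067050.2 (chromosome 2, distance 0.091). The sources used here pair neither ID with a name. Solyc06g075830.1 stood at 95.8 and 119 RPKM in lines D7 and C2 and at 287 and 267 RPKM in wild type. Solyc02g067050.2 stood at 12.6 and 16 RPKM in the lines and at 37.7 and 36.5 RPKM in wild type. That both were lower in both lines and lowest in line D7, as RIN was, follows from this choice. Of 16875 genes compared, 15 (0.0889%) lay within a distance of 0.2 and 265 (1.57%) within 0.5.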

How the data were processed

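RNA had been extracted with Trizol, enriched on oligo(dT) beads, fragmented and primed with random hexamers, per the labels' protocols. The authors deposited 1 table of RPKM values with a column per library. The submitters' processing notes name HTSeq. Aligner, genome build and annotation: not given in the sources used here. Columns were matched to samples by line name or replicate number, and groups came from the sample descriptions.

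Library totals and gene lengths were solved from the RPKM steps (lengths of 60 to 20000 bases, tolerance 0.001 reads). Of 24422 genes above 0, 99.99% were solved, against 8.8% of 3053 genes with wrong totals. Reads and lengths are lower limits where they share a factor, and counting error assumes independent reads.

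Transgenic and wild-type libraries were compared in R 4.3.3 with limma 3.58.1 (lmFit, then eBayes with trend), using log2(RPKM + 1) of the genes whose mean reached 1 RPKM. A count model was not the main test because the unit is RPKM. The fit and the recovery were tested on simulated data. Alternatives were another pseudocount or filter, quantile normalization, median-of-ratios scaling, a loess correction for length (span 0.3), other eBayes settings, voom on recovered reads, a replicate block and leaving out each library. The regulators, the ratio pairs and the alternatives were chosen with earlier results of these data known. All 10 regulators are named whatever their values, together with the 2 genes most like RIN. A list of other ripening genes was left out, since 0 of the 41476 reference genes carry a Solyc ID.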

Additional observations from a re-analysis of the deposited data

How the results depend on the processing

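The count of 1 regulator called lower became 3 with median-of-ratios scaling, all just below the threshold at limma adjusted p of 0.0494 to 0.0496. It became 0 with no filter, quantile normalization, the gene length correction and the replicate block. Each fit with 1 library left out gave 0. The count called higher was 0 in all 16 alternatives. RIN kept its negative sign in all 16 and its call in 8, among them the crossed block below, added after seeing the data. That block gave RIN its lowest limma adjusted p, 0.022. The adjusted p of RIN was 0.064 with no filter and 0.14 with quantile normalization (limma). Fold changes that changed sign were those of CNR (-0.04), TAGL1 (-0.00098) and AP2a (-0.02) with median-of-ratios scaling and of FUL1 (0.37) with quantile normalization. The counts of all genes, 3179 higher and 352 lower, became 498 and 926 under median-of-ratios scaling, 18 and 0 under the length correction, 17 and 0 under quantile normalization and 11 and 0 with no filter. Without a single library they ranged from 5 to 3485 and from 0 to 476. The cause was not tested. Replicate numbers are not said to mark a shared plant or batch, and same-numbered libraries deviated with a correlation of -0.16 across genes. With the replicate block the adjusted p of RIN was 0.076, and 24 genes were higher and 0 lower. A crossed block, added after seeing the data together with the overlap counts after scaling, gave 4071 higher and 816 lower. Ratios of RPKM + 1 differed from those of RPKM by less than 1 SD. With 2 libraries per group and 1 per line, differences between lines have no replicate.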
